A study of Drosophila melanogaster with 4 samples.

Results

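The gene hedgehog (hh) of Drosophila melanogaster and its flanks were examined for binding of the homeodomain transcription factor Distal-less (Dll), which is required for the distal parts of the legs and antennae. The region is the stretch of chromosome arm 3R from 18930000 to 19000000 on FlyBase release 5, and its members are the peaks whose midpoint lies in it, which were 19 of the 16117 peaks in the deposited list. Chromatin immunoprecipitation followed by sequencing (ChIP-seq) was done on white prepupae, the brief stage at the onset of metamorphosis, of the strain Y cn bw sp. Per the labels, the series holds 2 libraries of DNA precipitated with an affinity-purified rabbit polyclonal antibody against Dll and 2 libraries of input DNA. All 4 libraries share the same strain and genotype. On the X chromosome it carries y[1] and oc[R3.2]. Its second-chromosome alleles are Gr22b[1] and Gr22d[1], then cn[1], CG33964[R4.2] and bw[1], with sp[1] the last. The third chromosome carries LysC[1] with lab[R4.2], and also MstProx[1], GstD5[1] and Rh6[1].

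Every entry of the list gives the first and last base of a peak and 1 score. The score is the authors' own value from the peak caller and its scale is not named, so it serves here only for rank within the list. There are 0 values per library, so depth and the spread between replicates are unknown, and every comparison below is a description with no test. The chromatin came from prepupae, and which tissues contributed to a peak cannot be told apart.

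Hedgehog is a secreted, lipid-modified signal that cells of the posterior compartment of the imaginal discs make and that acts on anterior cells across the compartment border. Receiving cells sense it through Patched and Smoothened and answer through the transcription factor Ci. In the leg disc these cells then express the signals dpp and wg, whose joint action turns on Dll at the centre of the disc. Dll is thus known as a gene downstream of hh in the limb, and the question put to the list is where the Dll antibody enriched chromatin around hh itself.

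Peaks were concentrated on hh and on the interval next to it. Genes were placed on release 5 with a constant offset for 3R, and the RefSeq table used has gene spans but no strand and no exons, so positions are given relative to the low-coordinate and high-coordinate ends of each span. The planned check did not single out this offset, and the plan was then to place no gene. Placement rests on a second measure chosen afterwards, given with the processing below. As background knowledge, hh is read toward lower coordinates, so its promoter lies at the high end. Of the 19 peaks, 8 touched the 13.7 kb span of hh, 4 lay between hh and the next gene on the high side, unk, 4 lay on the low side of hh and 3 lay beyond the low end of unk. The peaks on hh and between hh and unk formed a run of 12 peaks over 20.7 kb, in which peaks covered 51.1% of the bases. The median gap within the run was 857 bp (range 145 to 2615 bp), against 2180 bp over all neighbouring peaks of the arms 2L, 2R, 3L, 3R and X. On either side the run was set off by longer gaps, of 9624 bp on the low side and 7524 bp on the high side. The run was not planned and its limits fall at long gaps, so its short inner gaps are partly built in. Close spacing was not particular to it, as gaps of 51 and 172 bp occurred on the low side of hh. The remaining gaps outside the run were 3701, 10227 and 5043 bp.

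**Figure D1:**
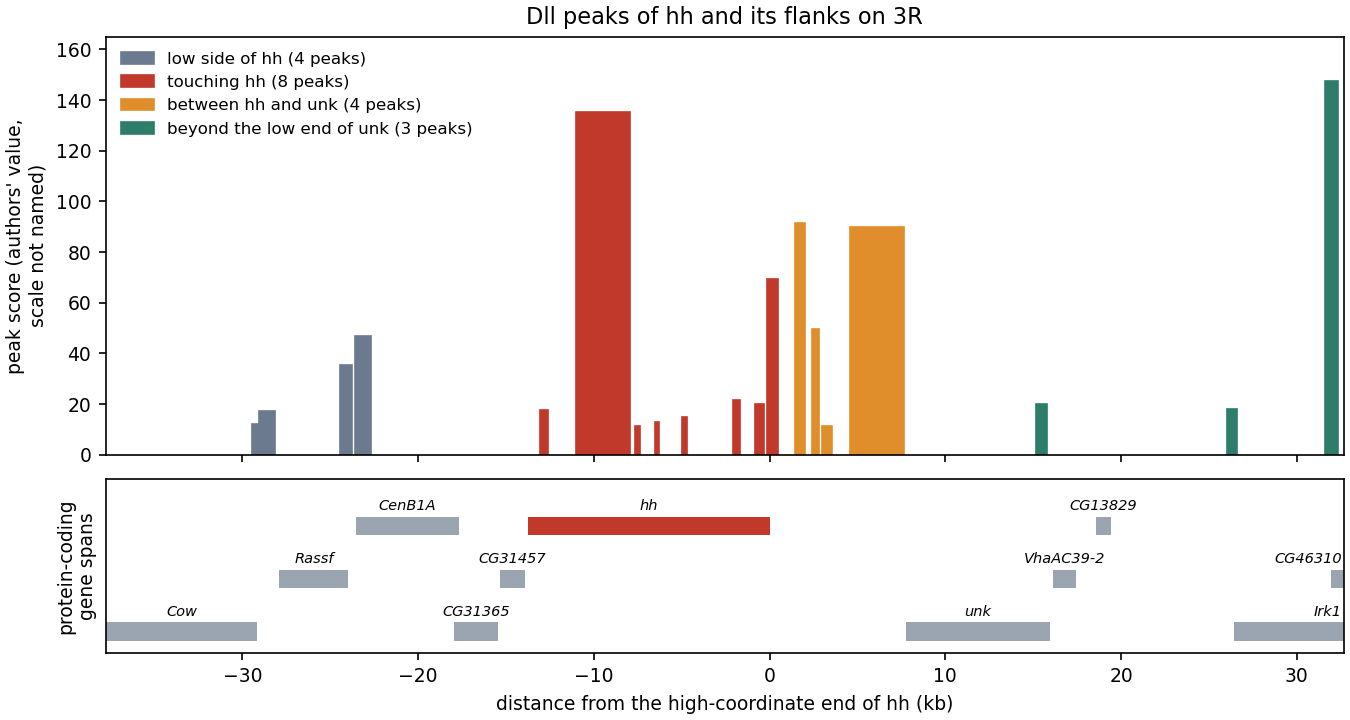
Map of the 19 Dll peaks around hh: each bar is 1 peak, with its width to scale on the x axis (distance from the high-coordinate end of hh, in kb) and its score on the y axis, above the spans of the protein-coding genes that overlap the region. The 2 wide bars are the peak in the interior of hh (score 135.16) and the peak next to unk (89.92), and the highest bar, at the right edge, is the peak on Irk1 and CG46310 (147.34).

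Within hh, 1 peak stood far above the others. It spanned 18956617 to 18959693, which is 3077 bp, began 2726 bp inside the low end of the gene, and scored 135.16. In the list of 16117 peaks it ranked 84 by width and 842 by score, above 94.8% of the list in score. Whether it lies on an exon or an intron of hh was not determined, as exon positions were not used here.

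A second, narrower peak lay over the high end of hh, where the promoter is known to be. It spanned 18967466 to 18968129 (664 bp) with a score of 69.31, above 87.1% of the list. A weaker peak at 18966811 to 18967292 (482 bp, score 20.04) lay on the inner side of it, after a gap of 173 bp. The other 5 peaks on hh had low to middling scores. From the low end onward, these were 17.8, 11.27, 12.94, 15.01 and 21.53, of which 3 were below the list median of 17.27, and their widths ran from 213 to 500 bp. The median score of the 8 peaks touching hh was therefore 18.92, close to that of the whole list, although 2 of the 8 were in its highest 25%.

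The interval of 7.75 kb between hh and unk, which encodes the zinc finger protein Unkempt, was the part of the region most fully covered by peaks, at 66.7% of its bases. From hh outward, the first peak spanned 18969056 to 18969662 (607 bp) and scored 91.28, with its near edge 1428 bp from the high end of hh. The next spanned 18970022 to 18970464 (443 bp) and scored 49.81, and a weak one at 18970610 to 18971163 (554 bp) scored 11.37. The fourth was the other very wide peak of the region, 3059 bp from 18972226 to 18975284, with a score of 89.92. It ended 91 bp before the low end of unk, with its midpoint 6.13 kb from hh, and the list does not assign it to either gene. The median score of these 4 peaks was 69.9, and 3 of them were in the highest 25% of the list.

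The peaks on the low side of hh lay at 3 other genes and left the near flank empty. At the high end of Cow, a gene for a secreted proteoglycan that carries Wingless, a peak at 18938163 to 18938548 scored 11.97 and one at 18938600 to 18939465 scored 17.27. A peak at 18943167 to 18943865 with a score of 35.28 covered the high end of Rassf, a regulator of the Hippo pathway. A peak at 18944038 to 18944918 with a score of 46.98 covered the low end of CenB1A, an Arf GTPase-activating protein. The genes CG31365 and CG31457, between CenB1A and hh, were touched by 0 peaks. On this side, 0 peaks lay in the 9624 bp before the first peak of hh, whereas 4 lay between hh and unk on the other.

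Beyond unk the peaks were few and 1 was strong. A peak at 18982809 to 18983434 with a score of 20.03 lay inside unk, 150 bp from its high end, and one at 18993662 to 18994208 with a score of 18.03 covered the low end of Irk1, which encodes an inwardly rectifying potassium channel. VhaAC39-2, for a subunit of the vacuolar proton pump, and CG13829 were touched by 0 peaks. The highest score of the region, 147.34, belonged to the peak at 18999252 to 18999945 (694 bp), which lies within Irk1 and covers the low end of CG46310, with its midpoint 31.97 kb from hh. That midpoint is 402 bp inside the edge of the region. The first peak beyond this edge, at 19000896, scored 12.84, and the last before the low edge, at 18927460, scored 9.76.

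**Figure D2:**
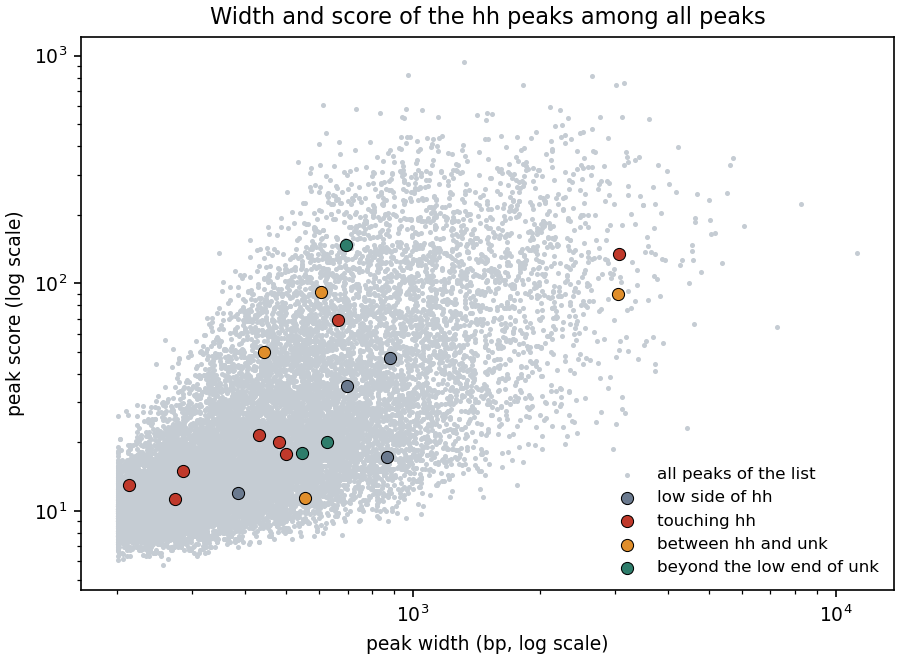
Width in bp (x axis, log scale) and score (y axis, log scale) of all 16117 peaks of the list (grey) and of the 19 peaks of the hh region (coloured by position). The peaks at 3077 and 3059 bp stand apart at the right from the other 17, which were 881 bp or narrower.

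The lowest score of the 19 peaks was above 22.3% of the list and the highest above 95.6%. Their scores ran from 11.27 to 147.34 with a median of 20.04 (interquartile range 16.1 to 59.6), and their widths ran from 213 to 3077 bp with a median of 554 bp (interquartile range 438 to 697 bp), against list medians of 17.27 and 432 bp. In the highest 25% of the list by score were 8 of the 19 peaks, or 42.1%, against 25% of all peaks. These 8 include the peak at Rassf, whose score of 35.28 equals the cutoff. The same 8 are counted in the comparison of windows below. The highest 10% held 4 of the 19, against 10% of all peaks, and the highest 1% held 0 of the 19, against 1.01%. Widths over 1000 bp, the planned cutoff, were found in 2 of the 19, or 10.5%, against 12% of all peaks. Widths over 3000 bp were found in the same 2, against 0.552% of all peaks. The cutoff of 3000 bp was not planned and lies just under the widths of these 2 peaks, 3077 and 3059 bp. The contrast at 3000 bp therefore depends on that choice. These 2 peaks made up 40.1% of the bases in peaks. With the same unplanned cutoff, 0.296% (5 of 1692) of the other 70 kb windows described next held as many or more peaks over 3000 bp. Wider members tended to score higher, with a Spearman rho between width and score of 0.654 over the 19 peaks and 0.708 over the list. Peaks of 1 list share their libraries and their caller, so this is a description.

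Many peaks of the region lay near ends of genes, most of them at genes other than hh. Of the 19, 10 were within 500 bp of an end of a protein-coding gene, or 52.6%, against 26.5% of the 4134 peaks of 3R. These 10 included both peaks at Cow, those at Rassf and CenB1A, 2 at the high end of hh, 2 at unk, 1 at Irk1 and 1 at CG46310. Every peak outside the run on hh and between hh and unk was among the 10. Of the 12 peaks in that run, only the 2 at the high end of hh and the wide peak next to unk were. By midpoint, 12 of the 19, or 63.2%, were inside a gene span, against 73.1% on 3R. The strongest peak on hh was not among those near a gene end, as its edge was 2726 bp from the nearest one.

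Compared with 1692 other windows of 70 kb on 2L, 2R, 3L, 3R and X, the hh region had many peaks and much of its length in peaks. Its median and highest scores were less far from the middle. Its 19 peaks compare with 9.21 ± 7.22 per window (mean ± SD over windows; median 8). Fewer peaks were found in 88.9% of the other windows, and 11.1% had 19 or more, up to 38. Its share of bases in peaks, 21.8%, was above that of 94.8% of windows, whose mean was 7.74% ± 7.44 (SD). Its median width of 554 bp was above that of 80.5% of the 1555 other windows that held a peak. By contrast, the median score was above that of 64.2% of them and the highest score above that of 68.6%. Counting only peaks in the highest 25% of the list, the region held 8 peaks and stood above 96.1% of windows, whereas after peaks within 1000 bp were merged it held 9 and stood above 72.2%.

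**Figure D3:**
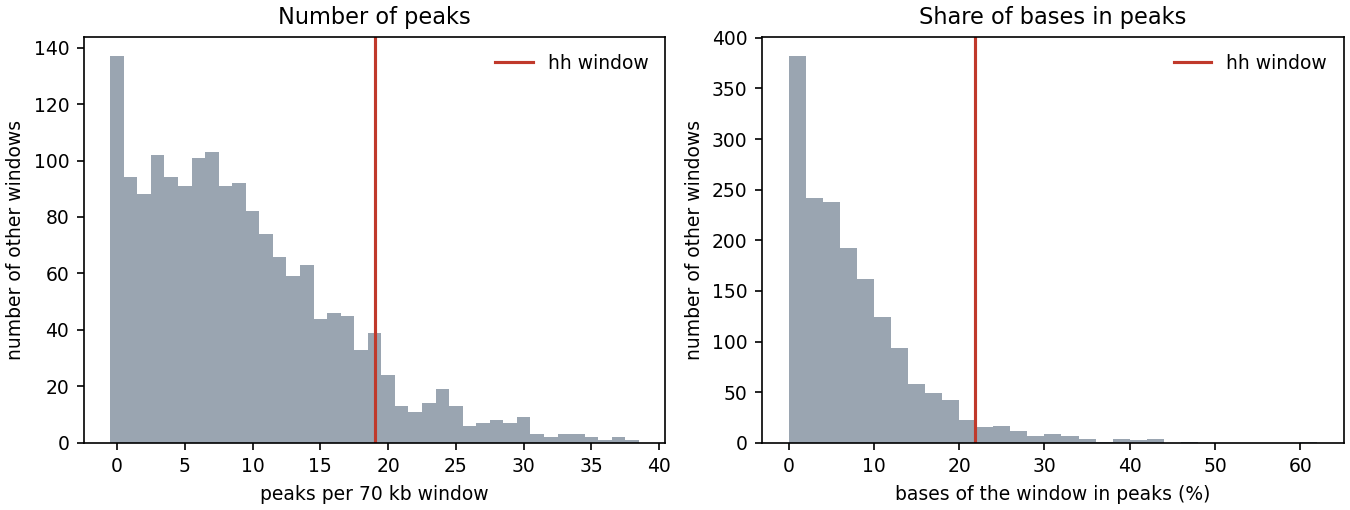
Number of peaks per 70 kb window (left) and percent of bases in peaks (right) for the 1692 other windows of 2L, 2R, 3L, 3R and X, as histograms with the number of windows on the y axis. The red lines mark the hh region, at 19 peaks and 21.8% of bases.

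Set against genes of like size, hh stood near the top of 3R. Among 203 other protein-coding genes of 3R that are 10 to 20 kb long, the median gene was touched by 2 peaks (interquartile range 1 to 4), and 4.43% were touched by 8 or more, which is 6 genes with 8 and 3 genes with 9. Peaks covered 39.5% of the span of hh, a share that 4 of the 203 genes exceeded, and the median share was 7.52%. The interval between hh and unk held 5 peaks by midpoint, since the midpoint of the peak over the high end of hh lies 0.17 kb beyond that end. Among 154 other intervals of 5 to 10 kb between protein-coding genes of 3R, 1.95% held 5 or more peaks, 76 held 0 and the median was 1. In 3 of the 154 intervals, peaks covered a larger share than the 66.7% next to hh. Neither the comparison with genes of like size nor that with other intervals was planned. Both were made with results of these data known, so the ranks only describe hh and the interval.

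Of 32 genes of the Hedgehog pathway listed for comparison, 8 are on 3R and could be placed, and krz, at the distal tip, had no full 70 kb window. In windows centred on the other 7, hh had the most peaks and the largest share of bases in peaks, 19 and 21.1%, against medians of 9 and 7.25% over 3363 other protein-coding genes of 3R. Su(fu), which encodes an inhibitor of Ci, followed with 17 peaks and 12.6%, and 1 peak, with a score of 8.39, touched the gene itself, which is 1596 bp long. Longer genes can be touched by more peaks, and the median gene of 3R was touched by 0. The window of gish, which encodes a casein kinase, had 14 peaks and 11.4%. The gene itself spans 32317 bp and was touched by 3 peaks, the highest of which scored 136.3. At rdx, the adaptor of a ubiquitin ligase that acts on Ci and is known as a target of the pathway, 10 peaks touched the gene, which spans 64997 bp, and the highest scored 316.1, against 135.16 in the window centred on hh and a median of 96.3 over the other genes. Gprk2, for a kinase that acts on Smoothened, spans 52629 bp and was touched by 5 peaks, the highest of which scored 13.97, and its window had 10. Both slmb, for an F-box protein that acts on Ci, and disp, for the transporter that releases Hedgehog from cells, were touched by 0 peaks, as was the median gene, with 5 and 8 in their windows. The highest score in the window of slmb was 110.5, above the median of 96.3, and that in the window of disp was 32.28. Pathway genes of the other arms, ptc, smo and ci among them, were not analysed here.

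**Figure D4:**
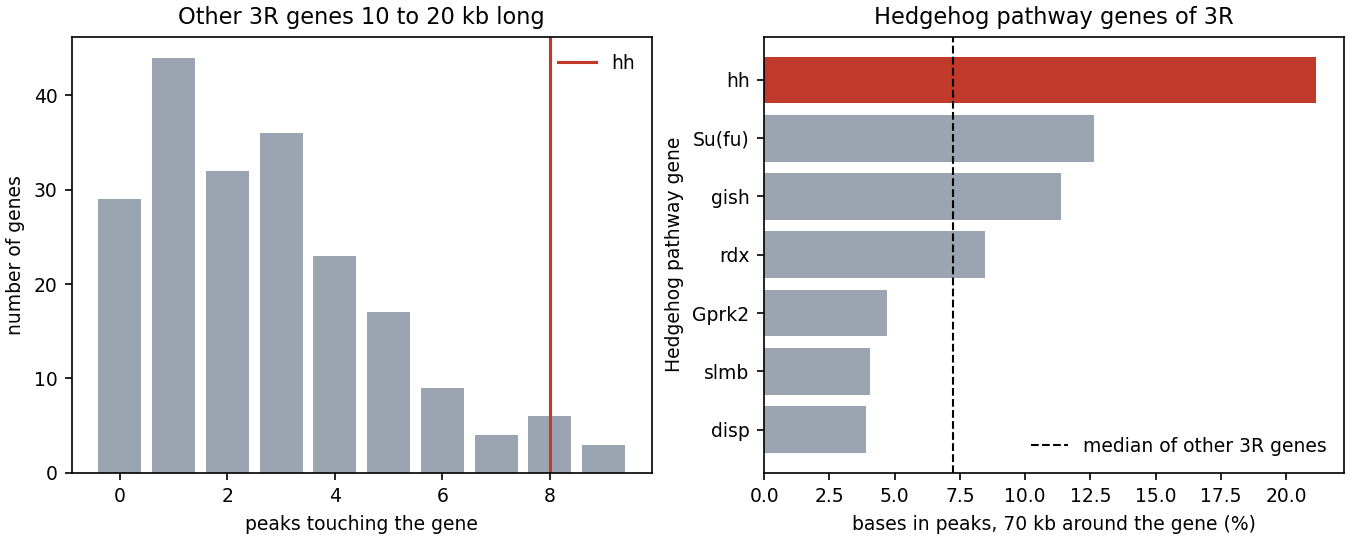
Left, the number of peaks that touch each of 203 protein-coding genes of 3R 10 to 20 kb long (x axis, peaks; y axis, genes), with the 8 of hh as a red line. Right, the percent of bases in peaks in 70 kb around 7 Hedgehog pathway genes of 3R, with hh highest at 21.1% and the dashed line at the median of the other genes, 7.25%.

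Windows of 3R were ranked by their likeness to that of hh in peak number, share of bases in peaks and highest score. The first 3 were taken in that order, passing over any that shared a base with another or with that of hh. They were centred on CG9312, on Atx2, which encodes the RNA-binding protein Ataxin-2, and on pHCl-2, which encodes a chloride channel. Their distances from hh over the 3 standardised measures were 0.239, 0.295 and 0.341, out of windows for 3313 genes. The window of CG9312 held 19 peaks over 19.7% of its bases, that of Atx2 20 peaks over 19.8% and that of pHCl-2 19 peaks over 23.2%. Their highest scores were 144, 124 and 126.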

How the data were processed

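Per the submitters' processing notes, the tools MACS2, BWA and CASAVA (1.7.0.2, 1.7.0.3) and the build BDGP 5 were used. No source used here gives the threshold of calling, the filters or whether replicates were pooled. According to the file's own header lines, the deposited list is GFF version 3 on FlyBase release 5. The score of each peak is the authors' deposited value, and other columns give start and end. A threshold already applied to the list hides weaker peaks, and read depth is unknown.

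Widths were end minus start plus 1. Windows of 70 kb were laid end to end from the first peak of each arm, leaving out those that share bases with the hh window. Percentiles are shares of other windows with a lower value. Members, gene lists and comparisons were chosen with earlier results of these data known. Peaks in the highest 25% by score or at a gene end, genes of the window and its neighbours, pathway genes of 3R and the 3 most alike windows were to be named.

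Genes come from a RefSeq table of release 6, placed by subtracting the constant offset given for 3R, and no converted gene coordinates are printed. The planned check, the share of 6754 gene ends within 500 bp of a peak, did not single out this offset (21.3%, against a median of 20.5% over 801 shifts up to 20 kb, 149 of which were higher). The plan had named gene starts, and the check was run on both ends of each gene. Under the plan, a failed check meant that no gene would be placed. All positions and comparisons that use genes therefore depart from the plan and rest on a second measure, chosen after that, which did single out the offset. Bases 250 bp inside gene ends were in peaks in 10.3% of cases and bases 250 bp outside in 6.08%. This difference of 4.26 percentage points was the highest of the 801 shifts, in steps of 50 bp, and shifts over 1 kb gave at most 1.12.

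Promoter motifs were planned but not run, as promoter sequence was not used here. The nearest gene beyond the low edge is CG6738 (0 peaks) and beyond the high edge cnc, a transcription factor gene (12 peaks, highest score 251.7). Python 3.11.15, numpy 2.4.6, pandas 2.3.3 and scipy 1.17.1 were used, and the scripts were tested on simulated lists.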

Additional observations from a re-analysis of the deposited data

How the results depend on the processing

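No value has an error between libraries, and the depth that set which peaks were called is unknown. Values are percentiles of the hh window, and a value was taken as moved when it left the exact 95% Clopper-Pearson interval of the percentile, which covers counting of windows only. Of 29 alternative values for 5 results, 13 stayed within that interval, 16 moved, and all 29 stayed above 50. For peak number (88.9) the percentile was 87.1 with windows of 3R only, 86.9 without X, 90.9 with gene-centred windows, 95.2 with the highest 50% and 96.1 with the highest 25% of peaks, 72.2 after merging within 1000 bp, 91.4 with 40 kb windows and 82.7 with 100 kb windows. For median width (80.5) it was 89.7 after merging. For median score (64.2) it was 68.3 with gene-centred windows and 54.5 after merging. For the highest score (68.6) it was 65.4 with gene-centred windows, 74.7 with 40 kb and 60.1 with 100 kb windows. Leaving out the last peak, whose midpoint is 402 bp inside the edge, an alternative chosen after seeing the data, gave 87 for peak number and 65 for the highest score. By construction, merging joins the close peaks of hh into fewer regions. The share of bases in peaks kept within its interval in the 4 alternatives run, from 93.9 to 95.6. These were a shifted grid, windows of 3R only, gene-centred windows and leaving out the last peak. Leaving out X, score cutoffs, merging and other window sizes, which moved peak number, were not run for this share. No paired analysis was possible because the list has 0 values per library and no result comes from a test.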
